A study of Homo sapiens with 2 samples.

Results

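The genes described here are the Wnt ligands and their export factors, the Frizzled, LRP and LGR receptors, the R-spondins, the beta-catenin destruction complex, the feedback and secreted inhibitors, and the TCF/LEF factors of 2 human liver cancer cell lines. Members were taken by symbol: every WNT gene with a number and an optional A or B, every numbered FZD gene, and 37 further pathway genes listed by name. This gave 66 of the 57820 genes in the tables, each found once and in both tables. The libraries were made from poly(A) RNA of unmodified (WT) cultures, 1 of SKHEP1 and 1 of HepG2, each a single established line grown in DMEM with 10% fetal bovine serum and 1% PenStrep. SKHEP1 is labelled as endothelial cells and HepG2 as hepatocellular carcinoma. The series was made to examine PURPL, a long noncoding RNA linked to p53, so the Wnt genes are a comparison of the lines and not of a Wnt treatment.

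Wnt proteins are lipid-modified in the endoplasmic reticulum by PORCN and carried to the cell surface by WLS. They bind a Frizzled receptor together with LRP5 or LRP6, which stops a complex of APC, AXIN and GSK3B from marking beta-catenin for degradation, and beta-catenin then enters the nucleus and activates genes with TCF/LEF factors. Many of those genes, such as AXIN2, NKD1, NOTUM, RNF43, ZNRF3 and DKK1, encode inhibitors of the pathway. In the liver this signal sets the gene programme of hepatocytes around the central vein, and HepG2 is known to carry an in-frame deletion in CTNNB1 that removes the residues through which the complex acts. The deposited gene tables hold no sequence, so that allele was not examined.

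Expected counts summed to 19940557 for SKHEP1 and to 22477757 for HepG2. A count of 0 was read against a floor of 0.148 counts-per-million (CPM) for SKHEP1 and 0.135 CPM for HepG2, which is what 3 reads are worth in each library. The exact 95% upper limit of a count of 0 is somewhat higher, at 3.69 reads. All 8 hepatocyte markers checked, ALB and HNF4A among them, had 0 counts in SKHEP1 and between 1237 and 646438 in HepG2. Of 8 endothelial markers, none was above 10 counts in SKHEP1, and KDR, ERG, EMCN and CLDN5 were at 0, so the defining endothelial genes were not detected or near 0 in the line labelled endothelial. Of 5 mesenchymal markers compared, 4 were higher in SKHEP1, with VIM at 144720 and 2 counts and COL3A1 at 5765 and 0, and 1 lay within 4-fold, at a median log2 ratio of -7.23. The marker within 4-fold was PDGFRB, with more counts in HepG2 (103 and 183), and COL1A2, at 7 and 0, was under the minimum. Summed over the 6 listed, mesenchymal markers stood at 6909.65 TPM in SKHEP1, of which VIM alone gave 6798.39. In HepG2 the sum was 6.4 TPM, of which PDGFRB gave 6.14. The 4 markers higher in SKHEP1 differ in the direction of the Wnt genes that are higher there, and their part in those results was not tested. Of 4 bile duct markers, KRT7 was at 1276 and 0 counts and EPCAM at 32 and 3163. KRT19, at 4635 and 2631, lay within 4-fold, and CFTR had 0 in both. Of 4 blood markers none was above 58 counts in either library. With 1 library per line, line, culture and library cannot be told apart and no difference was tested. Intervals are 95% intervals for counting error only and may be too narrow even so, because reads copied by PCR cannot be told from separate molecules.

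The lines had like levels of beta-catenin, APC and GSK3B and differed in most expressed ligands, inhibitors and feedback genes. Of the 66 genes, 44 had at least 10 counts in either library and were compared. A ratio of CPM of at least 4 was counted as a difference, and a count under 3 was set to 3. By this rule 15 of the 44 (34.1%) were higher in SKHEP1, where 16.5% of all 15455 genes compared were. In HepG2 16 of the 44 (36.4%) were higher, beside 13.0% of all genes. The other 13 (29.5%) lay within 4-fold, as did 70.6% of all genes. The members were chosen with results of these data known, and the shares are a description. Since both directions were filled alike, the median log2 ratio of HepG2 over SKHEP1 was 0.10, beside -0.03 for all genes compared.

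**Figure D1:**
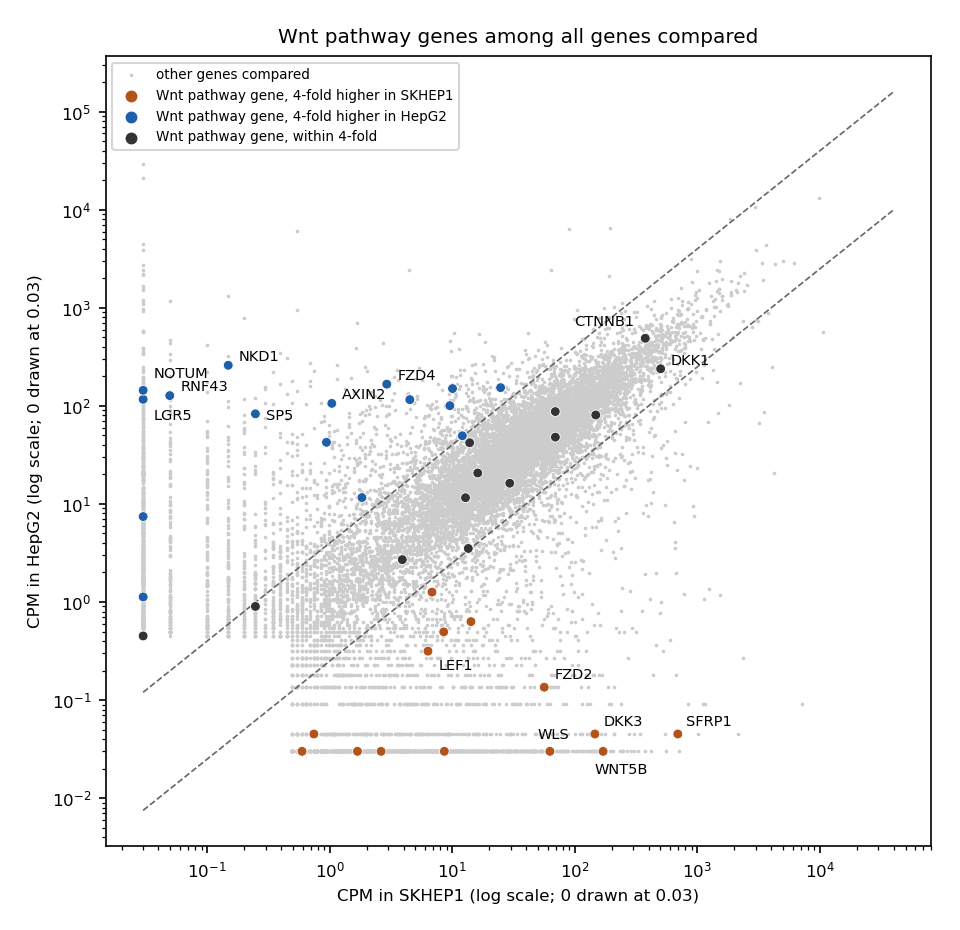
CPM of each gene in SKHEP1 (x axis) and HepG2 (y axis), both on log scales with 0 drawn at 0.03; grey points are the other genes of the 15455 compared, coloured points the 44 Wnt pathway genes, and dashed lines mark 4-fold. CTNNB1 and DKK1 lie between the lines at high levels, whereas SFRP1, DKK3, WNT5B and WLS lie at the lower edge, with 0 or 1 count in HepG2, and NOTUM, LGR5 and RNF43 at the left edge, with 0 or 1 count in SKHEP1.

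Many members were on in one line and off in the other. At least 10 counts in SKHEP1 with under 3 in HepG2 were found for 10 members (22.7% of the 44, beside 9.30% of all genes). The reverse, at least 10 in HepG2 with under 3 in SKHEP1, was found for 6 members (13.6%, beside 6.87%). These 6 include WNT11, at 0 and 10 counts, which lay within 4-fold against the floor. The remaining 22 genes were under 10 counts in both libraries, and 13 of them had 0 in both. These 22 were WNT1, WNT2, WNT3A, WNT4, WNT6, WNT8A, WNT8B, WNT9B, WNT10A, WNT16, FZD10, RSPO1, RSPO2, RSPO3, RSPO4, LGR6, NKD2, DKK2, SFRP2, SFRP5, WIF1 and APCDD1.

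Wnt ligands were expressed mainly in SKHEP1. Of the 19 ligand genes, 9 were compared, and 7 of these were higher in SKHEP1, none was higher in HepG2 and 2 lay within 4-fold. On the per-length TPM scale (transcripts-per-million), the 19 genes summed to a level of 185.65 in SKHEP1 and 6.33 in HepG2. WNT5B (ENSG00000111186.8), a ligand best known for signalling without beta-catenin, had 3436 counts in SKHEP1 against 0 in HepG2, or 169.94 and 0 TPM. It was at least 1257-fold higher in SKHEP1 against the floor of 3 counts, and the exact 95% lower limit was 1022. Each "at least" value is the observed count set against that floor, and its 95% lower limit lies below it. That single gene made up 91.5% of the ligand TPM in SKHEP1.

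The other ligands were low in SKHEP1, and WNT3 was the one with over 100 counts in both lines. WNT3, an activator of the beta-catenin branch, had 259 counts in SKHEP1 against 257 in HepG2, 1.11-fold more in SKHEP1, where the interval (0.927 to 1.32) holds 1. At 6.44 and 5.63 TPM it was 3.47% of the ligand TPM in SKHEP1 but 88.9% in HepG2. WNT5A, the close relative of WNT5B, had 174 counts in SKHEP1 against 0 in HepG2, at least 63.7-fold higher. WNT7B, a ligand of lung and kidney development, had 172 and 11 counts, a 17.2-fold difference (interval 9.36 to 35.0). WNT5A and WNT7B were thus split between the lines like WNT5B, at far fewer counts, whereas WNT3 was not.

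Near the count minimum, the ligand values are less certain. WNT10B had 34 counts in SKHEP1 against 0 in HepG2, at least 12.4-fold higher, while WNT7A and WNT9A each had 12 and 0, at least 4.39-fold higher against the floor but with a 95% lower limit of 3.05. WNT7A was within 4-fold when the deposited TPM or FPKM values replaced counts, with a log2 ratio of -0.76 or -0.81. Those ratios use the HepG2 length of WNT7A, 1658 bases beside 4041 in SKHEP1, which rests on no read. WNT2B had 15 and 1 counts, a ratio of 16.5 (2.53 to 693), and its exons overlap those of ST7L on the other strand, at 260 and 230 counts. Of the 9 ligands compared, WNT11 was the one with more counts in HepG2, at 0 and 10.

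**Figure D2:**
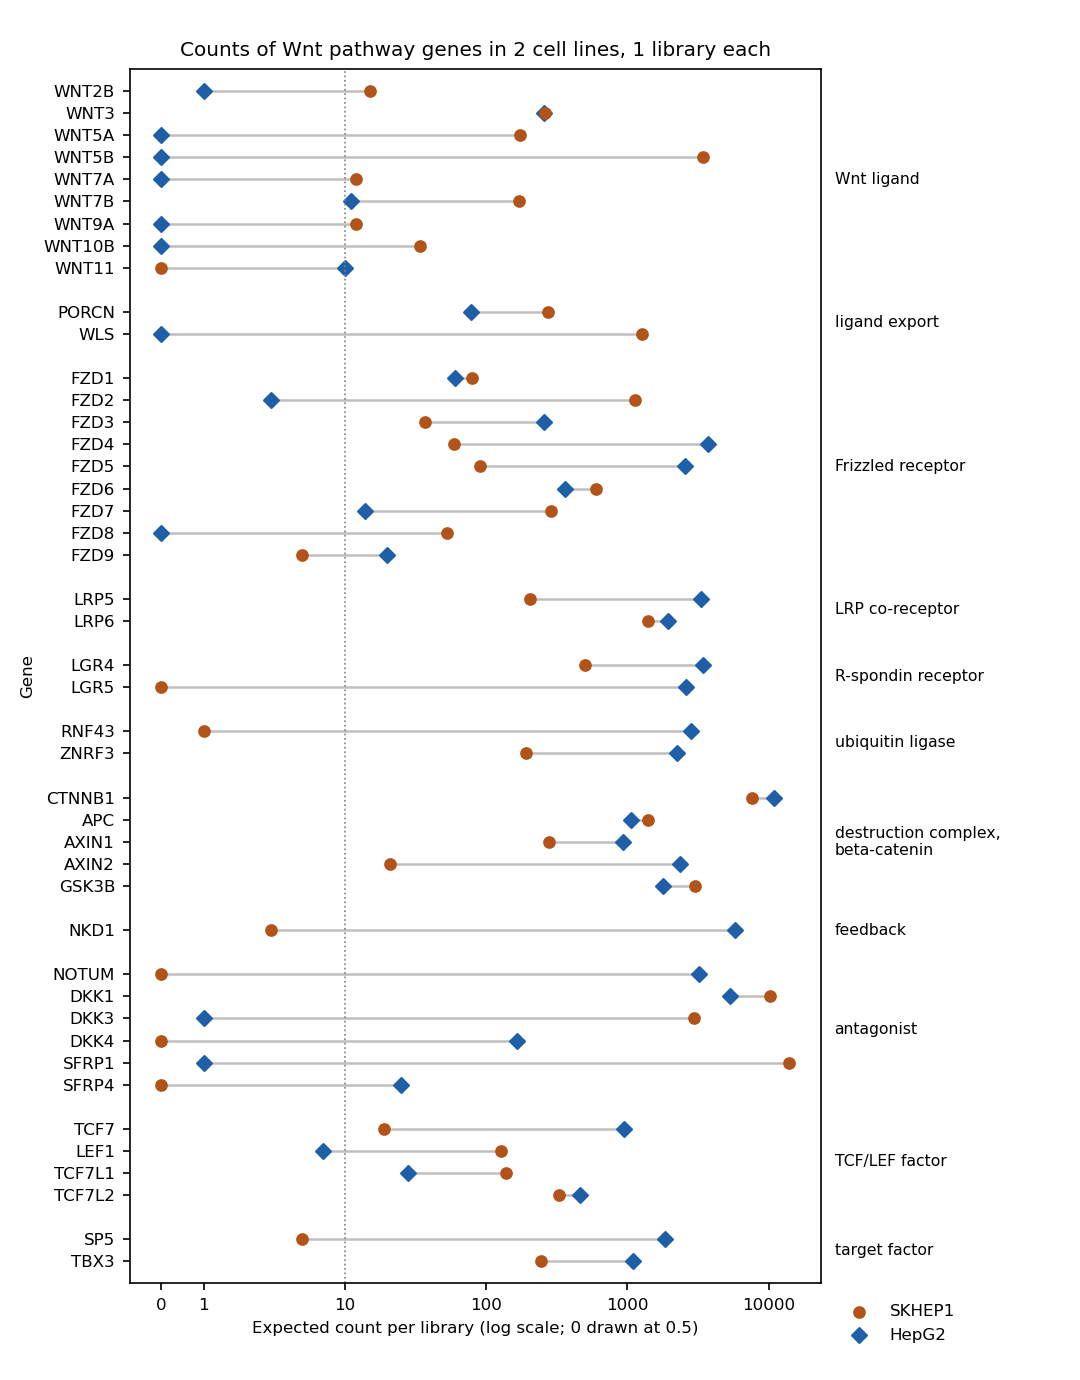
Expected counts (x axis, log scale, 0 drawn at 0.5) of the 44 Wnt pathway genes with at least 10 counts (dotted line) in either library, grouped by role; circles are SKHEP1 and diamonds HepG2, 1 library each. WNT3 has 259 and 257 counts, whereas WNT5B, WLS and FZD8 are at 0 in HepG2 and LGR5, NOTUM and DKK4 at 0 in SKHEP1.

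Of the 2 ligand export genes, WLS was higher in SKHEP1 and PORCN lay within 4-fold. WLS (ENSG00000116729.9), the carrier that brings Wnt proteins to the cell surface, had 1265 counts in SKHEP1 against 0 in HepG2, or 43.65 and 0 TPM, at least 463-fold higher in SKHEP1. PORCN, the acyltransferase that attaches the lipid, had 273 and 78 counts and was 3.84-fold higher in SKHEP1 (2.98 to 5.01), an interval that spans the 4-fold limit. HepG2 thus had PORCN and WNT3 counts but no WLS read.

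The Frizzled receptors had nearly equal summed levels in the lines but were made up of different genes. The 10 genes summed to 76.05 TPM in SKHEP1 and 75.86 TPM in HepG2. Of the 9 compared, SKHEP1 had the higher level for 3 and HepG2 for 3, while 3 lay within 4-fold. FZD2 (ENSG00000180340.5) had 1137 counts in SKHEP1 against 3 in HepG2, a 416-fold difference (142 to 2021), and gave 65.6% of the Frizzled TPM in SKHEP1. FZD7, its close relative, had 287 and 14 counts, 22.5-fold higher in SKHEP1 (13.2 to 41.7). FZD8 had 53 and 0 counts, at least 19.4-fold higher.

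In HepG2, FZD4 and FZD5 took the leading place. FZD4 (ENSG00000174804.3), also the receptor for the ligand norrin, had 59 counts in SKHEP1 against 3696 in HepG2 and was 57.1-fold higher there (44.1 to 75.1). FZD5 (ENSG00000163251.3) had 91 and 2570 counts, 25.7-fold higher in HepG2 (20.9 to 32.1). They gave 46.9% and 36.0% of the Frizzled TPM in HepG2. The exons of FZD4 overlap those of PRSS23 on the other strand, which had 10667 counts in SKHEP1 against 7 in HepG2. Since the strand setting of the counting is not given, the 59 FZD4 counts in SKHEP1 may hold reads of PRSS23, which was not tested.

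FZD3, FZD6, FZD1 and FZD9 were smaller parts of both sets. FZD6, which is tied to cell polarity, had 595 counts in SKHEP1 against 361 in HepG2, a 1.81-fold difference (1.59 to 2.07), and was the second Frizzled of SKHEP1 by TPM at 13.71. FZD3, a polarity receptor as well, had 37 and 258 counts, 6.35-fold higher in HepG2 (4.49 to 9.22). Its isoform-weighted length was 2181 bases in SKHEP1 and 5072 in HepG2, and on the TPM scale, which divides by length, its log2 ratio was 1.33, within 4-fold. FZD1 had 79 and 60 counts, and FZD9 5 and 20, both within 4-fold.

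The LRP co-receptors also traded places. LRP5 (ENSG00000162337.7) had 203 counts in SKHEP1 against 3333 in HepG2, 15.0-fold higher in HepG2 (13.0 to 17.3). LRP6 had 1400 and 1943 counts and lay within 4-fold at 1.26-fold (1.18 to 1.35). By TPM, LRP6 led in SKHEP1 with 13.69 beside 3.21 for LRP5, whereas LRP5 led in HepG2 with 49.68 beside 17.41.

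**Figure D3:**
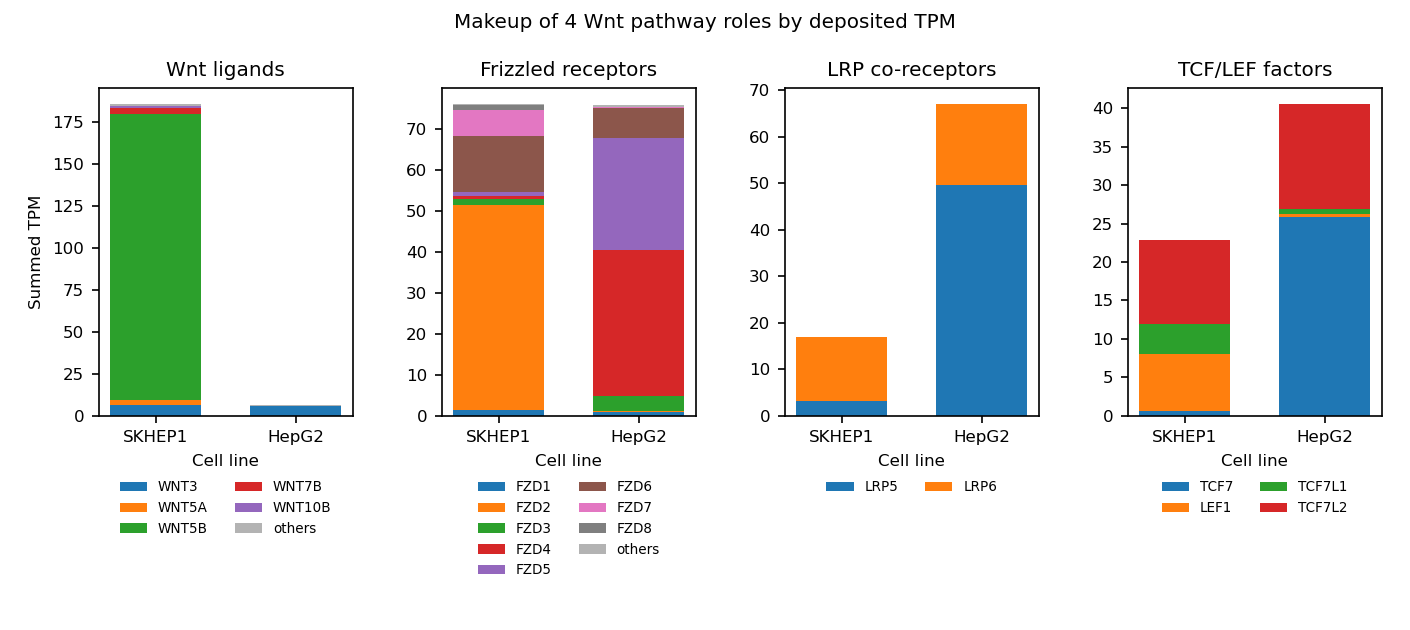
Stacked bars of the deposited TPM (y axis, linear from 0) of the Wnt ligand, Frizzled, LRP and TCF/LEF genes in each line (x axis), 1 library each; genes under 1 TPM in both lines are summed as others. Frizzled genes sum to 76.05 TPM in SKHEP1, mostly FZD2, and to 75.86 TPM in HepG2, mostly FZD4 and FZD5, while the ligands sum to 185.65 and 6.33 TPM.

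Of the R-spondin branch, the receptors LGR4 and LGR5 were higher in HepG2, and the R-spondins had at most 2 counts in either library. R-spondins bind LGR receptors and remove the ubiquitin ligases RNF43 and ZNRF3, which otherwise clear Frizzled from the membrane. RSPO1, RSPO2 and RSPO4 had 0 counts in both libraries, and RSPO3 had 2 in SKHEP1 and 0 in HepG2. LGR5 (ENSG00000139292.8), a stem cell receptor and itself a target of the pathway, had 0 counts in SKHEP1 against 2590 in HepG2, at least 786-fold higher. LGR4, the widely expressed member, had 501 and 3406 counts, 6.19-fold higher in HepG2 (5.64 to 6.81). LGR6 had 1 count in each library.

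Both ubiquitin ligases were higher in HepG2. RNF43 (ENSG00000108375.8) had 1 count in SKHEP1 against 2825 in HepG2, a ratio of 2573 (461 to 101666). Its exons overlap those of SUPT4H1 on the same strand, at 1444 and 2536 counts, and whether reads are shared was not tested. ZNRF3 had 193 and 2230 counts, 10.5-fold higher in HepG2 (9.08 to 12.3). The 2 ligases summed to 2.52 TPM in SKHEP1 and 86.6 TPM in HepG2.

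Beta-catenin and 3 of the 4 listed genes of its destruction complex lay within 4-fold. CTNNB1 (ENSG00000168036.12), which encodes beta-catenin, had 7590 counts in SKHEP1 against 10856 in HepG2, 1.30-fold higher in HepG2 (1.26 to 1.34). APC, a scaffold of the complex, had 1402 and 1066 counts, 1.44-fold higher in SKHEP1 (1.33 to 1.57). GSK3B, its kinase, had 2995 and 1793 counts, 1.83-fold higher in SKHEP1 (1.73 to 1.95). AXIN1, the second scaffold, had 280 and 934 counts, 3.04-fold higher in HepG2 (2.66 to 3.48).

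AXIN2 (ENSG00000168646.8), the form of axin that beta-catenin itself induces, stood apart from these. It had 21 counts in SKHEP1 against 2354 in HepG2, a 102-fold difference (66.6 to 165). With TPM values its log2 ratio was 5.84, beside 6.67 by counts. Its exons overlap those of CTD-2535L24.2 on the same strand, at 10 and 0 counts, and whether reads are shared was not tested. By TPM, AXIN1 exceeded AXIN2 in SKHEP1 (6.99 and 0.91), and AXIN2 exceeded AXIN1 in HepG2 (52.02 and 20.37).

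The negative regulators that act outside and inside the cell split into a SKHEP1 set, a HepG2 set and DKK1, which was abundant in both. SFRP1 (ENSG00000104332.7), a secreted Frizzled-like protein that binds Wnt, had 13997 counts in SKHEP1 against 1 in HepG2, a ratio of 15367 (2758 to 607024). DKK3 (ENSG00000050165.13), a divergent member of the Dickkopf family, had 2946 and 1 counts, a ratio of 3234 (580.1 to 127796). SFRP1 had the most counts of all members in SKHEP1, and the other SFRP members, SFRP2, SFRP4 and SFRP5, had no read there.

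In HepG2 the negative regulators were NKD1, NOTUM and, at lower level, DKK4 and SFRP4. NKD1 (ENSG00000140807.4), which acts on Dishevelled inside the cell, had 3 counts in SKHEP1 against 5759 in HepG2, a ratio of 1748 (598 to 8481). NOTUM (ENSG00000185269.7), a secreted enzyme that removes the lipid from Wnt, had 0 and 3202 counts, at least 972-fold higher in HepG2. DKK4 had 0 and 165 counts, at least 50.1-fold higher, and SFRP4 0 and 25, at least 7.59-fold higher. By TPM, NOTUM (116.22) and NKD1 (103.26) ranked behind DKK1 and CTNNB1 among the members in HepG2.

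DKK1 (ENSG00000107984.5), which blocks LRP5 and LRP6, was the most abundant member by TPM in both lines. It had 10135 counts in SKHEP1 against 5307 in HepG2, or 781.33 and 326.19 TPM, and ranked 190 and 406 among all genes by TPM. The 2.10-fold difference in favour of SKHEP1 (2.03 to 2.17) lay within the 4-fold limit. The 4 Dickkopf genes summed to 929.52 TPM in SKHEP1 and 342.6 TPM in HepG2.

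Each of the 4 TCF/LEF factors, the DNA-binding partners of beta-catenin, was detected in both lines, but in different proportion. TCF7 (ENSG00000081059.15) had 19 counts in SKHEP1 against 943 in HepG2, 45.2-fold higher in HepG2 (28.8 to 75.4). LEF1 (ENSG00000138795.5) had 128 and 7 counts, 20.1-fold higher in SKHEP1 (9.47 to 50.9), and TCF7L1, which mainly represses, had 138 and 28, 5.41-fold higher in SKHEP1 (3.58 to 8.44). TCF7L2, a factor of intestine and liver, had 326 and 459 counts, a 1.28-fold difference (1.11 to 1.48).

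By TPM, TCF7L2 (10.97) and LEF1 (7.43) led in SKHEP1 and TCF7 (25.8) and TCF7L2 (13.67) in HepG2. LEF1 made up 32.5% of the TCF/LEF TPM in SKHEP1 and 0.986% in HepG2, while TCF7 made up 2.49% and 63.6%. The exons of TCF7 overlap those of SKP1 on the other strand, which had 4180 and 4181 counts, and whether reads are shared was not tested.

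**Figure D4:**
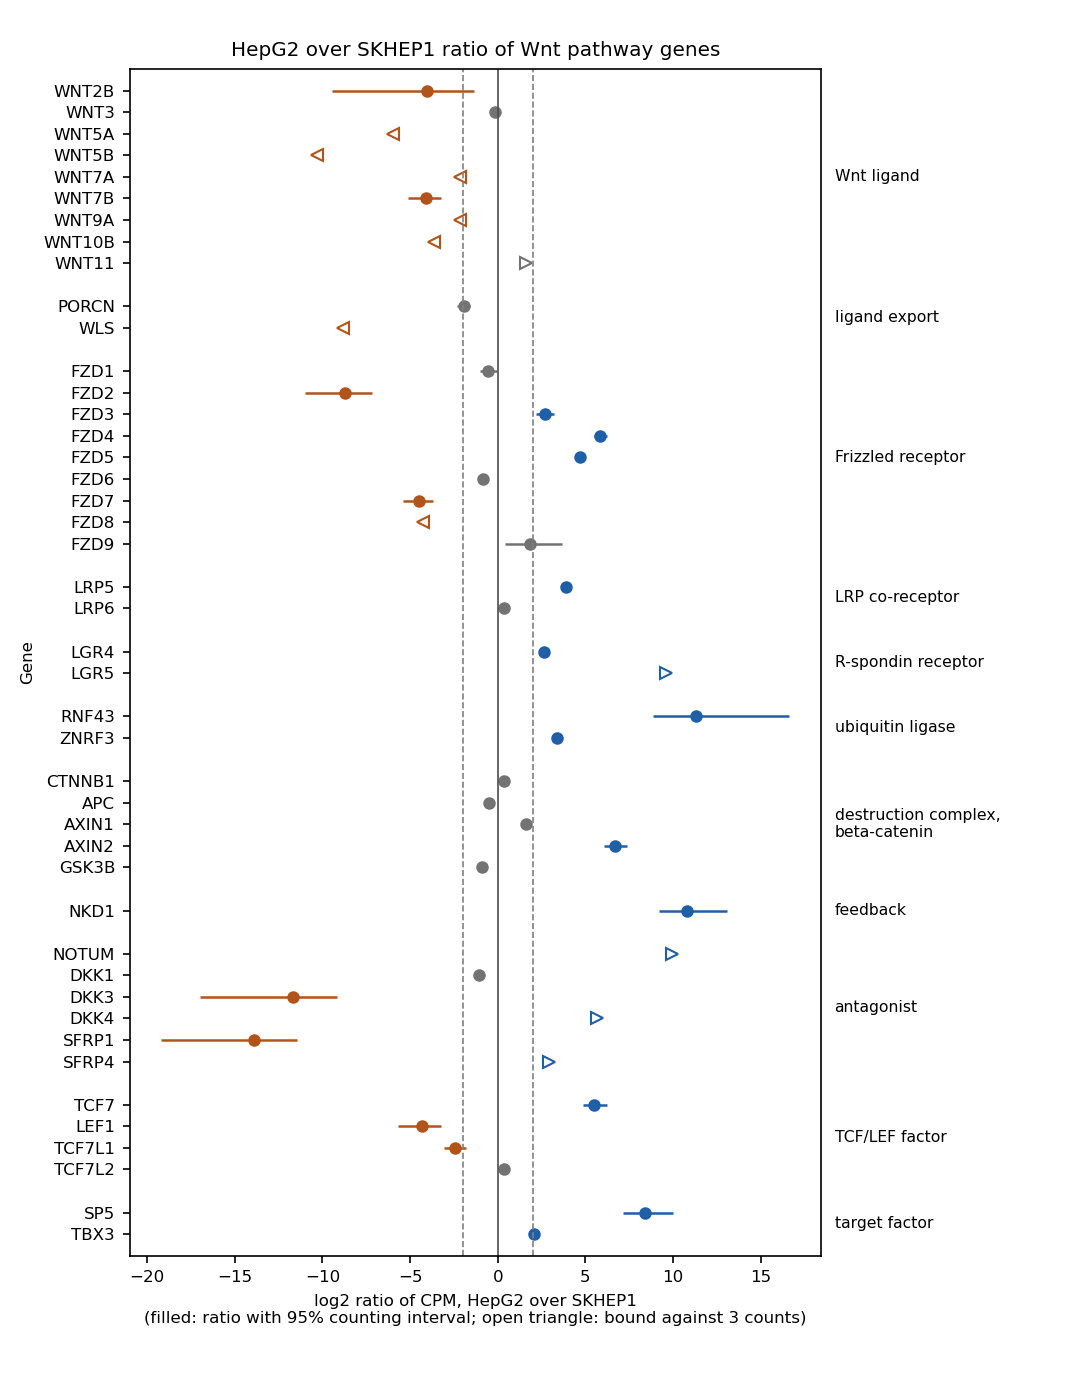
log2 ratio of CPM, HepG2 over SKHEP1 (x axis), of the 44 genes compared, grouped by role; filled points have 95% counting intervals, open triangles are bounds against 3 counts where a library had 0, and dashed lines mark 4-fold. As drawn, RNF43, NKD1 and NOTUM reach furthest to the HepG2 side and SFRP1 and DKK3 furthest to the SKHEP1 side. CTNNB1, LRP6 and TCF7L2 lie near 0. Filled points are raw ratios and triangles are floored, so their order is not on 1 scale. With all counts floored at 3, WNT5B (-10.30) lay beyond DKK3 (-10.07), and NOTUM (9.93) beyond RNF43 (9.74).

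The 2 target transcription factors were higher in HepG2. SP5 (ENSG00000204335.3), a direct target that in turn dampens Wnt responses, had 5 counts in SKHEP1 against 1841 in HepG2, a 335-fold difference (143 to 1034). TBX3, a T-box factor induced by beta-catenin in liver tumours, had 244 and 1100 counts, 4.11-fold higher in HepG2 (3.57 to 4.74). TBX3 sat at the limit, and with total counts in place of TMM scaling its log2 ratio of 2.00 was just under it.

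Promoter sequence from RefSeq (build GRCh38.p14) was matched by symbol for 46 of the 66 members, with 58 windows. AXIN2, LGR5, NKD1, NOTUM, ZNRF3, DKK2, DKK3, DKK4, SFRP1, TBX3, LRP6, FZD2, FZD3, FZD6, FZD7, FZD10, RSPO2, WNT7B, WNT10B and WNT11 were not matched. The 250 bases before each start were searched on both strands for the TCF-type motif CTTTG followed by 2 bases that are each A or T. A match was present in 4 of the 58 windows (6.90%, exact binomial interval 1.91 to 16.7%) and in 4199 of all 35116 promoter windows of that length (12.0%). The interval treats the windows as independent, but 10 genes had more than 1 window, so it may be too narrow. The 4 windows belonged to DKK1, SP5, TCF7 and TCF7L2. The windows of SP5 and DKK1 are shown because they held more than 1 match, SP5 with 335-fold unequal counts and DKK1 abundant in both lines. They are written 5′ to 3′ on the gene's strand (plus for both), with matches in capitals, a reverse match appearing as its complement. The windows are chr2:170715087-170715336 for SP5 and chr10:52314031-52314280 for DKK1, ending at the base before the start.
SP5: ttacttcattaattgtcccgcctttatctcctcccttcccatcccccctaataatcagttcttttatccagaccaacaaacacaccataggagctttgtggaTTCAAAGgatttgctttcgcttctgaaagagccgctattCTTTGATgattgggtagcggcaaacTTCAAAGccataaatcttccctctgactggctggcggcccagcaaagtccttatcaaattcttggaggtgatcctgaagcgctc
DKK1: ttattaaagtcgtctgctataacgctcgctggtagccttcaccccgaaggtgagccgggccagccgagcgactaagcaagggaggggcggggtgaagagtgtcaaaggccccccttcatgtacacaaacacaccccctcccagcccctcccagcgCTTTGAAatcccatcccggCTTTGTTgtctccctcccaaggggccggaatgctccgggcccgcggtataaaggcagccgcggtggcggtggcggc

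The SP5 window held 3 matches that do not overlap, the first bases of which lie 148, 109 and 84 bases before the start. In the DKK1 window 2 matches began 95 and 76 bases before the start. A match is a string of letters in this window and not a measured binding site.

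The isoform-weighted gene length gave a second readout for the 13 members with at least 100 counts in both libraries. RSEM averages the lengths of a gene's transcripts by their estimated use, so a changed length reflects a changed mix of transcripts. The log2 ratio of length, HepG2 over SKHEP1, ranged from -0.38 to 0.12. ZNRF3 had the largest difference, with 6274 bases in SKHEP1 and 4822 in HepG2, and was the one member past a ratio of 1.2, as were 7.42% of the 9196 genes with as many counts. CTNNB1 had 3311 and 3321 bases from 15 annotated transcripts, and WNT3 had 3355 in both. These lengths are estimates without an error in the tables.

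Other genes of the pathway were taken from lists written from textbook knowledge, and their counts are read beside those of all genes compared, of which 70.6% lay within 4-fold, 16.5% were higher in SKHEP1 and 13.0% in HepG2. Of 18 Dishevelled genes and partners of the destruction complex, 16 lay within 4-fold and each line was higher for 1, and the median log2 ratio was -0.23. AMER1, an APC-binding scaffold, had 249 and 1114 counts, 4.07-fold higher in HepG2 (3.55 to 4.69). FRAT2, which binds GSK3, had 84 and 349 counts, 3.78-fold higher in HepG2 (2.97 to 4.86) and thus within the limit. DVL3, a Dishevelled protein, had 923 and 2178 counts. The gene higher in SKHEP1 was APC2, a relative of APC, at 57 and 4 counts.

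Of 14 beta-catenin co-factors and TCF co-repressors, 10 lay within 4-fold, 4 were higher in SKHEP1 and none in HepG2, with a median of 0.18, beside 70.6%, 16.5% and 13.0% over all genes. CTBP2, a co-repressor, had 1696 counts in SKHEP1 against 2 in HepG2, a ratio of 931 (257 to 7694). TLE4, a Groucho-type co-repressor, had 789 and 52, 16.7-fold higher in SKHEP1 (12.6 to 22.5). PYGO1, a co-activator, had 324 and 59, 6.03-fold higher (4.56 to 8.10), and CTNNBIP1, which blocks binding of beta-catenin to TCF, had 461 and 1374, 2.71-fold higher in HepG2. TLE2, at 32 and 2 counts, was the fourth gene higher in SKHEP1. The related co-repressors CTBP1, at 1239 and 1860 counts, and TLE1, at 1014 and 1581, lay within 4-fold.

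Surface receptors and antagonists outside the member list differed in both directions. Of 12 genes, 9 were compared, and each line was higher for 3, the other 3 lying within 4-fold at a list median of 0.01. ROR2, a receptor for WNT5A, had 160 counts in SKHEP1 against 0 in HepG2, at least 58.6-fold higher. TRABD2A, which cleaves Wnt proteins, had 409 and 1, a ratio of 449 (80.1 to 17779). In HepG2, GPC6, a glypican, had 1921 counts beside 37 in SKHEP1, 47.3-fold higher (34.2 to 67.4), and PTK7, a co-receptor of the polarity branch, had 4501 beside 200, 20.5-fold higher (17.8 to 23.7). ROR1, the relative of ROR2, was also higher in SKHEP1, at 485 and 45 counts, and KREMEN1, a receptor for Dickkopf proteins, in HepG2, at 84 and 973.

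The 12 genes of planar cell polarity included 10 that were compared, of which 6 lay within 4-fold, SKHEP1 was higher for 3 and HepG2 for 1, and the median was -0.73. CELSR2, a polarity cadherin, had 93 and 754 counts, 7.38-fold higher in HepG2 (5.95 to 9.26). CELSR1, its relative, had 314 and 75, 4.60-fold higher in SKHEP1 by counts. On the TPM scale, which divides by length, it stood at 3.19 and 1.97, within 4-fold. DAAM1, a formin of this branch, had 322 and 900 counts, and CELSR3 1075 and 514, both within 4-fold. PRICKLE1, at 29 and 3 counts, and the formin DAAM2, at 39 and 1, were the others higher in SKHEP1.

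Liver genes known to respond to beta-catenin were not uniform. Of 7 genes, 5 were compared, HepG2 being higher for 3, SKHEP1 for 1 and neither for 1, and the median was 2.95. GLUL, the glutamine synthetase of hepatocytes around the central vein, had 1161 counts in SKHEP1 against 9845 in HepG2, 7.72-fold higher in HepG2 (7.27 to 8.21). RHBG, an ammonium transporter, had 0 and 684, at least 208-fold higher, and the glutamate transporter SLC1A2 had 3 and 398, a ratio of 121 (41.0 to 588). OAT, an ornithine enzyme, had 2368 and 1684 counts. CYP2E1, with 21 counts in SKHEP1 against 0 in HepG2, was the gene of this list that was higher in SKHEP1, while LECT2 and CYP1A2 had at most 2 counts in either library. GLUL, RHBG and SLC1A2 differed in the direction of the 8 hepatocyte markers given above, and the part of those markers in this was not tested.

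Of 11 matched general target genes, 3 of which are members, 9 were compared. HepG2 was higher for 4, SKHEP1 for 2 and neither for 3, and the median with the members included was 0.06. Of the 4 higher in HepG2, 3 were the members AXIN2, ZNRF3 and LGR5 already described, and only BMP4 was outside the member list. The 2 higher in SKHEP1 and the 3 within 4-fold were all outside it. The growth regulators MYC, at 2310 and 2647 counts, and CCND1, at 9340 and 5211, lay within 4-fold, as did SOX9 at 3514 and 3392. CD44, a hyaluronan receptor, had 47924 and 6 counts, a ratio of 8769 (4029 to 23897) in favour of SKHEP1. EPHB2, an ephrin receptor, had 209 and 0, at least 76.5-fold higher in SKHEP1. BMP4, a growth factor, had 42 and 1855, 40.2-fold higher in HepG2 (29.6 to 56.0), the same side as AXIN2, ZNRF3 and LGR5.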

How the data were processed

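The deposited tables are RSEM gene results, 1 library per line, with expected counts (estimates of the reads per gene, not always whole), TPM, FPKM and isoform-weighted lengths, per the file headers. Per the submitters' processing notes, the authors used cutadapt, STAR, RSEM and DESeq2 with build hg19. Neither versions nor annotation nor strand setting is given in the sources used here. Per the labels' protocols, the libraries were stranded mRNA libraries.

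Expected counts were rounded and scaled to CPM of the TMM effective library size (edgeR 4.0.16, R 4.3.3; factors 1.01 for SKHEP1 and 0.987 for HepG2). Comparison needed 10 counts in at least 1 library, with a floor of 3 counts and a limit of 4-fold. Ratios against 0 counts are bounds, and ratios with 1 to 3 counts are raw. The level given for 0 counts is the floor of 3 counts, and ratio intervals are exact (conditional Clopper-Pearson at 95%; scipy 1.17.1). No test was made, since no line has a replicate. Exon overlaps were read from GENCODE release 29 by stable identifier and promoters from RefSeq by symbol. The calculation was tested on simulated data.

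Members and lists were chosen with earlier results of these data known. Every member could be named; of each list, up to 4 genes with the largest ratio and at least 100 counts, and genes named beyond these (APC2, TLE1, TLE2, CTBP1, ROR1, KREMEN1, PRICKLE1, DAAM2, CYP2E1, CYP1A2, LECT2, BMP4, MYC, CCND1, SOX9) were chosen after their values were seen. Alternatives tried were scaling by total counts or by DESeq2 1.42.0 size factors, TPM, FPKM, unrounded counts, a prior count of 2, a minimum of 50 counts or of 1, a limit of 2-fold or 8-fold, the interval bound past 4-fold, the mean, effective length, a longer promoter window and fewer motifs.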

Additional observations from a re-analysis of the deposited data

How the results depend on the processing

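The count of members higher in SKHEP1 was 15 and lay between 11 and 17 over the 11 alternatives, and the count higher in HepG2 was 16 and lay between 12 and 19, each within 1.5 times the value given. With a 2-fold limit 17 and 19 of the 44 were higher in SKHEP1 and HepG2, beside 25.0% and 23.4% of all genes. With an 8-fold limit 11 and 12 were, beside 11.5% and 8.14%. The minimum of 1 count could not change the counts, since a gene under 10 counts cannot reach 4-fold over the floor of 3. The median log2 ratio of the members was 0.10. It was 0.34 with a minimum of 50 counts, which leaves 37 of the 44 genes, beside -0.01 for all genes compared at that setting. With a minimum of 1 count, which takes in 53, it was -0.13, the same as for all genes. That is the value the floor gives any gene with at most 3 counts in both libraries, so it shows no shift toward SKHEP1. The mean was 0.19. The median log2 length ratio was -0.0043, and it was -0.0060 with effective length and 0 with a minimum of 50 counts in both libraries. Of 264 recomputed ratios of single members, 235 stayed inside their counting interval and 29 moved outside it. None of the ratios past 4-fold changed direction. All that moved did so with TPM or FPKM values, which divide by length. They include genes with 0 counts in 1 library, such as WNT5B, WLS and LGR5, whose length there rests on no read. Calls changed for WNT7A and FZD3 (TPM and FPKM), TBX3 (total counts) and WNT11, which passed 4-fold toward HepG2 with a prior count of 2. The share of member promoters with a motif was 8.62% (2.86 to 19.0%) with the bases after the start. With 2 motifs only it was 3.45% (0.420 to 11.9%). As in the main search these intervals hold the share of all promoters (13.8% and 5.94%), but they treat windows of 1 gene as independent. No paired analysis was possible because each line has 1 library. Genes at 0 counts are not detected at this depth rather than absent.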

Other observations

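Some Wnt ligand genes lie next to each other on a chromosome by the RefSeq gene order, and in these libraries none of 3 adjacent pairs had 10 counts for both genes. Of all 19 ligand genes, 8 reached 10 counts in SKHEP1 and 3 in HepG2, so the 3 pairs show nothing particular to neighbours. WNT10B and WNT1, neighbours on chromosome 12, stood at 34 and 0 counts for SKHEP1, and both at 0 for HepG2. WNT3 and WNT9B, neighbours on chromosome 17, stood at 259 and 0 counts for SKHEP1, and at 257 and 0 for HepG2. WNT6 and WNT10A, on chromosome 2, stood at 0 and 1 counts for SKHEP1, and both at 0 for HepG2.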
